A study of Macaca mulatta with 18 samples.

Results

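Dense clusters of open chromatin were examined in fetal brain of wild type rhesus macaque at embryonic day 84, in the tissue that the labels call GZ. A dense window is a 40 kb window of an autosome, on a fixed grid, that held the centres of 6 or more GZ DNase-seq peaks. A threshold of 8 was tried first and gave 84 windows, under the minimum of 200 set with it, so 6 was used. It gave 655 dense windows, 1.60% of the 40979 autosomal windows with at least 1 GZ peak. They held 4320 of 81000 autosomal GZ peaks (5.33%). The windows they are set against, called sparse, held 1 to 3 GZ peaks and numbered 36441. Both classes were chosen by their number of GZ peaks, so GZ peak numbers are given as a description and carry no test.

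The other tissue, CP, was of the same stage and genotype, and the labels give both names only as abbreviations. For each tissue there was 1 DNase-seq and 1 CTCF ChIP-seq library, 1 loop list and 1 boundary list from 3 Hi-C libraries, and 3 RNA-seq libraries. In the sample titles, libraries of the same number share a code across tissues and assays. The labels do not say how many animals gave the libraries, and with 1 list per tissue no difference has a replicate check. Intervals are 95% Wilson intervals for shares and 95% exact Poisson intervals for means, and cover counting error only.

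DNase I cuts DNA where nucleosomes are absent or loosened, so DNase-seq peaks mark open chromatin such as promoters, enhancers and insulators. CTCF is a DNA-binding protein that stops loop extrusion by cohesin, and pairs of CTCF sites are often found at the anchors of loops and at the boundaries of contact domains. Stretches with many open sites close together are known around developmental genes in many tissues. Genes were not assigned to windows here.

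The autosomal GZ and CP lists held 81000 and 69872 DNase peaks, 29938 and 21476 CTCF peaks, 14632 and 9138 loops, and 2704 and 2486 boundaries. The GZ list was the longer of each pair. The tissue labels were checked on RNA: PAX6, a transcription factor of cortical progenitors, had log2 FPKM of 5.02, 5.13 and 5.56 in GZ and 4.63, 3.99 and 4.13 in CP, and NEFL, a neurofilament subunit of neurons, had 4.42, 2.99 and 2.63 in GZ and 6.41, 6.81 and 6.96 in CP. Neither gene's values overlapped between tissues. The other genes looked up for progenitors and dividing cells, GLI3, MKI67 and TOP2A, were higher in all GZ libraries than in any CP library. The neuronal genes NEFM, GRIN2B and SYT1 had the opposite order. How many of all genes separate the tissues in this way was not counted. The libraries numbered 1 differed on chromosome Y. DNase peaks there numbered 41 in GZ and 2 in CP, against 1978 and 1914 on chromosome X. In the RNA libraries numbered 1, 6 of 7 Y-linked genes had the opposite order. RPS4Y1 had log2 FPKM of -0.23 in GZ and 4.45 in CP, ZFY was close at -0.13 in GZ and 0.03 in CP, and EIF1AY was the exception at 1.66 in GZ and 0.31 in CP. Both DNase libraries carry number 1, so no DNase result could be given without them. Whether the libraries numbered 1 came from 1 animal, or whether the tissue labels of the DNase libraries were exchanged, was not tested. An exchange would turn each comparison of GZ with CP DNase peaks. It would also mean that the windows were chosen on CP peaks, and would change the tissue pairing of DNase peaks with CTCF, loops and boundaries.

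Most dense windows sat close to the threshold. Exactly 6 GZ peaks were held by 419 windows, 7 by 152, and 8 or more by 84. Just outside it, 1181 windows held exactly 5. The highest number was 19. Neighbouring peak centres within dense windows lay a median of 4196 bp apart, against 8523.5 bp in sparse windows, a difference that the choice of windows sets in part. Peaks listed at 146 bp had a median caller score of 22 in dense windows and 17 in sparse windows. Their fold over local background ran the other way, with medians of 7.41 and 9.91.

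The dense windows were also rich in CP peaks. They held 4.64 CP peaks each on average (SD 2.01, n = 655; interval 4.48 to 4.81), against 1.33 in sparse windows (SD 1.13, n = 36441; interval 1.32 to 1.35). The median was 4, with quartiles of 3 and 6 and a range of 0 to 17. Only 2 dense windows (0.305%; interval 0.0838 to 1.11%) had no CP peak, against 25.2% of sparse windows and 22.6% of all windows with a GZ peak. At least 6 CP peaks were found in 189 dense windows (28.9%; interval 25.5 to 32.4%), in 0.206% of sparse windows and in 1.07% of all windows with a GZ peak. These 189 windows were 42.9% of the 441 windows in which CP reached 6 peaks.

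CP peaks were fewer than GZ peaks in 527 dense windows (80.5%), equal in 84 (12.8%) and more numerous in 44 (6.72%). Over all windows with a GZ peak these shares were 46.5%, 36.5% and 17.0%. The choice by GZ peak number sets this difference in part. Summed over windows, the ratio of GZ to CP peak number was 1.42 in dense windows and 1.23 in sparse windows, against 1.16 for the whole autosomal lists. On the log2 scale the ratios were 0.51 (interval 0.44 to 0.57) and 0.30 (interval 0.28 to 0.32). The GZ number chose the windows, so this ratio is a description. The mirror choice, windows with 6 or more CP peaks, gave a CP to GZ ratio of 1.25. In 67.1% of the mirror windows CP peaks were more numerous than GZ peaks. Relative to the lengths of the lists, dense windows had a GZ to CP ratio of 1.23 and the mirror windows a CP to GZ ratio of 1.45. With 1 added to both numbers, GZ was at least 2-fold higher in 101 dense windows (15.4%), against a background of 27.1% of all windows with a GZ peak, which a window with 1 GZ and 0 CP peaks already reaches. CP was at least 2-fold higher in 0 dense windows, against a background of 2.45%. Reaching this takes many more CP peaks in a dense window than in a window with 1 GZ peak. The choice of windows therefore sets this contrast in part.

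**Figure D1:**
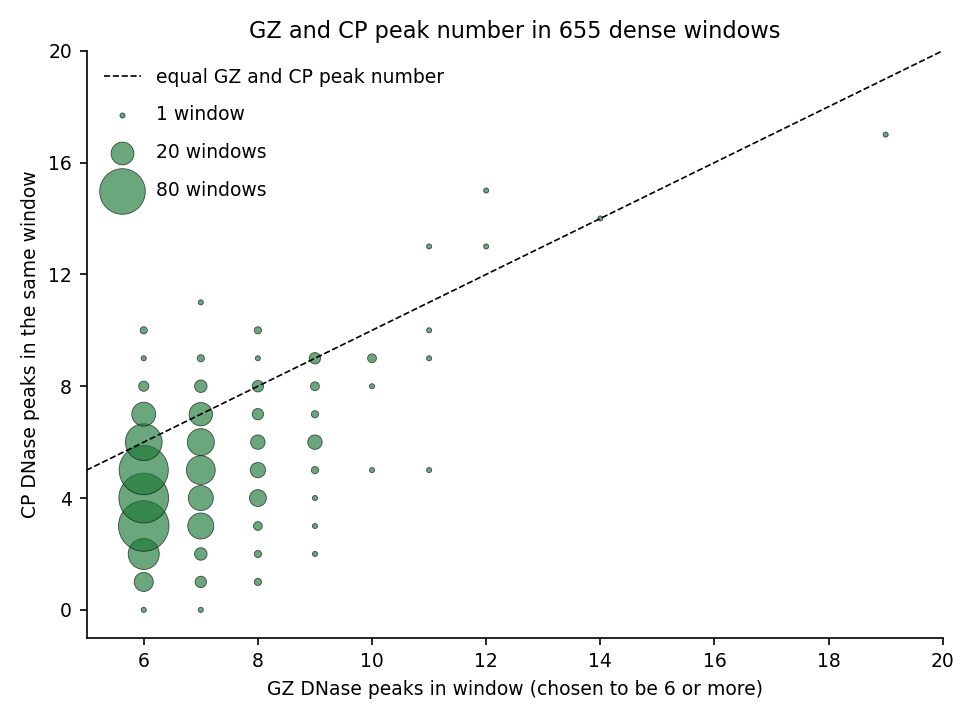
CP DNase peaks (vertical axis, peaks per window) against GZ DNase peaks (horizontal axis, peaks per window, 6 or more by choice) in the 655 dense windows, with circle area for the number of windows and a dashed line where both are equal. Of the windows, 527 lie below the line, 84 on it and 44 above it, and 2 lie at 0 CP peaks. The choice by GZ peak number sets this spread in part.

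Peak by peak, 2484 of the 4320 GZ peaks in dense windows overlapped a CP peak by at least 1 bp (57.5%; interval 56.0 to 59.0%), against 52.3% in sparse windows (interval 51.9 to 52.7%). With the GZ list cut to the length of the CP list by caller score, the shares were 59.3% (interval 57.7 to 60.9%) and 58.2% (interval 57.8 to 58.6%), which overlapped. An average dense window held 3.79 GZ peaks shared with CP, 2.80 GZ peaks with no CP peak over them and 0.849 CP peaks with no GZ peak over them. All GZ peaks were shared in 31 dense windows and none in 8. From the CP list, 81.7% of CP peaks in dense windows overlapped a GZ peak (2483 of 3039), against 64.5% in sparse windows (31365 of 48647). The number of GZ peaks enters this share, which is therefore not independent of the choice of windows.

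The shared part differed with CTCF and with peak score. Among GZ peaks that overlapped GZ CTCF, 79.8% were shared with CP in dense windows and 80.7% in sparse windows, with overlapping intervals. Away from CTCF, 50.4% were shared in dense windows (interval 48.7 to 52.2%) and 42.4% in sparse windows (interval 41.9 to 42.8%). Below the median score of the GZ list, 34.1% were shared in dense windows and 31.4% in sparse windows. From the median score up, the order turned, with 71.0% in dense windows (interval 69.3 to 72.7%) and 75.2% in sparse windows (interval 74.7 to 75.7%). Shared GZ peaks in dense windows had a median score of 29, and those not shared 16.5.

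CTCF was present in most dense windows of both tissues. A GZ CTCF summit lay in 528 dense windows (80.6%; interval 77.4 to 83.5%), against 43.5% of sparse windows and a background of 46.7% of all windows with a GZ peak. Of GZ CTCF peaks, 74.4% in dense windows and 71.8% in sparse windows overlapped a GZ DNase peak. The choice by GZ peak number therefore sets this contrast in part. A CP summit lay in 460 (70.2%; interval 66.6 to 73.6%), against 33.7% of sparse windows and a background of 36.8%. Both tissues had CTCF in 457 dense windows (69.8%), GZ alone in 71 (10.8%), CP alone in 3 (0.458%) and neither in 124 (18.9%). Over all windows with a GZ peak these shares were 35.3%, 11.4%, 1.53% and 51.8%. The share of GZ alone was thus close to the background. Dense windows held 2.07 GZ CTCF peaks each (interval 1.97 to 2.19) and 1.60 CP CTCF peaks (interval 1.51 to 1.70), against 0.589 and 0.428 in sparse windows. With the GZ CTCF list cut to the length of the CP list by its q-values, 73.1% of dense windows held GZ CTCF, and its interval of 69.6 to 76.4% overlapped that of CP.

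Per open site, CTCF was not more frequent in the dense windows. GZ CTCF overlapped 24.1% of GZ DNase peaks in dense windows (interval 22.8 to 25.3%) and 25.9% in sparse windows (interval 25.6 to 26.3%). Restricted to CTCF peaks from the median q-value up, the order turned, to 16.8% in dense windows and 15.7% in sparse windows, with overlapping intervals. CTCF peaks that overlapped no DNase peak of their own tissue were also more numerous in dense windows. They averaged 0.531 per window in GZ (interval 0.477 to 0.590) and 0.427 in CP (interval 0.379 to 0.481), against 0.166 and 0.0960 in sparse windows. Of the GZ CTCF peaks in dense windows, 72.6% overlapped a CP CTCF peak (interval 70.2 to 74.9%), against 66.5% in sparse windows (interval 65.9 to 67.2%).

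**Figure D2:**
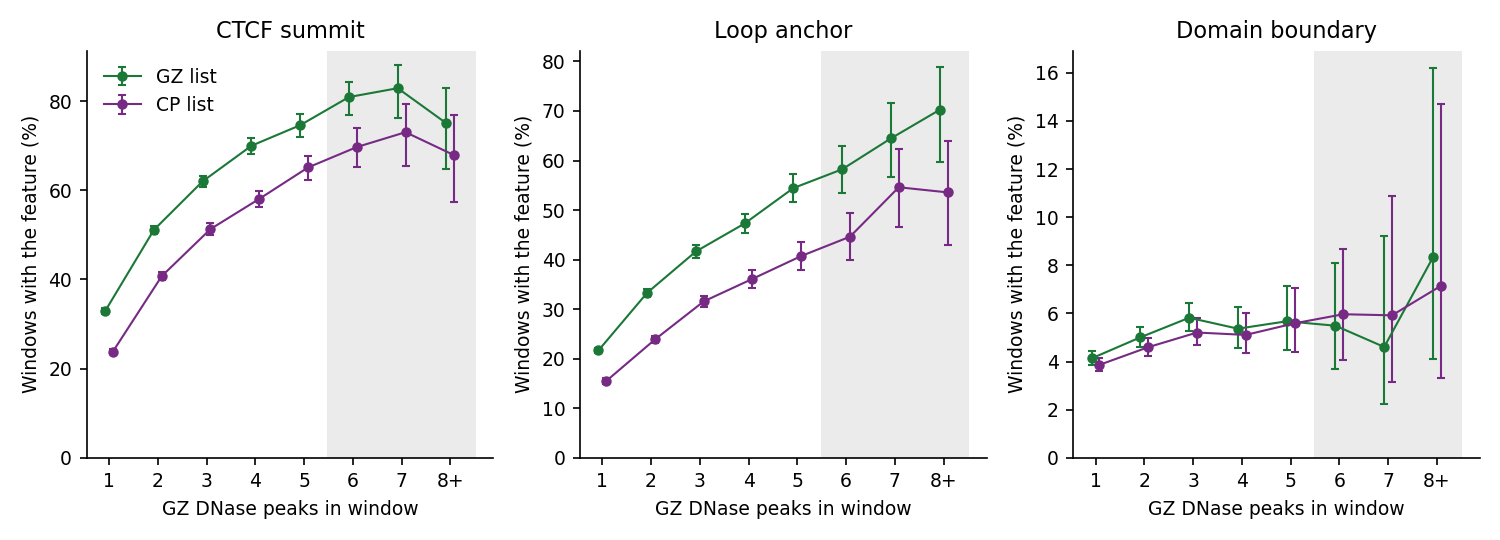
Share of windows (%) with a CTCF summit, a loop anchor or a domain boundary, by the number of GZ DNase peaks in the window, for the GZ and CP lists; points are shares, bars 95% Wilson intervals, and grey marks the dense windows. CTCF and loop anchors rise from 32.9% and 21.7% at 1 GZ peak to 80.9% and 58.2% at 6 in the GZ lists, whereas boundaries stay between 3.86% and 8.33% in both lists.

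Loop anchors were found in 401 dense windows of the GZ list (61.2%; interval 57.4 to 64.9%), against 28.6% of sparse windows and a background of 31.1%. In the CP list they were found in 315 (48.1%; interval 44.3 to 51.9%), against 20.8% of sparse windows and a background of 22.8%. Both lists had an anchor in 297 dense windows, GZ alone in 104, CP alone in 18 and neither in 236. The order of the tissues turned when the GZ list was cut to the length of the CP list by observed over expected contacts, with 40.2% of dense windows holding a GZ anchor, below the 48.1% of CP. That cut changes the length and also keeps the loops highest on a measure that was lower for GZ loops of dense windows, with a median of 3.07, than for all GZ loops, with 3.29. The order of dense and sparse windows was kept there, at 40.2% and 19.9%. Among loops of up to 2 Mb, 58.2% of dense windows and 25.3% of sparse windows held a GZ anchor.

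The difference between dense and sparse windows was wide where no CTCF was called. Of the 127 dense windows without GZ CTCF, 34 held a GZ anchor (26.8%; interval 19.8 to 35.1%), against 9.22% of such sparse windows (interval 8.83 to 9.62%). With 1 or 2 CTCF summits the shares were 61.3% in dense windows (interval 55.6 to 66.6%) and 52.6% in sparse windows (interval 51.8 to 53.4%). With 3 or more they were 80.1% in dense windows (interval 74.5 to 84.7%) and 73.3% in sparse windows (interval 70.4 to 75.9%), and the intervals overlapped. In the CP lists the same 3 classes gave 24.6%, 53.3% and 66.3% of dense windows, against 7.63%, 46.0% and 64.9% of sparse windows. This split counts loops of all spans. The dense windows without CTCF include the 3 with the most loops, described below, where most loops span over 10 Mb and repeats and assembly were not examined.

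**Figure D3:**
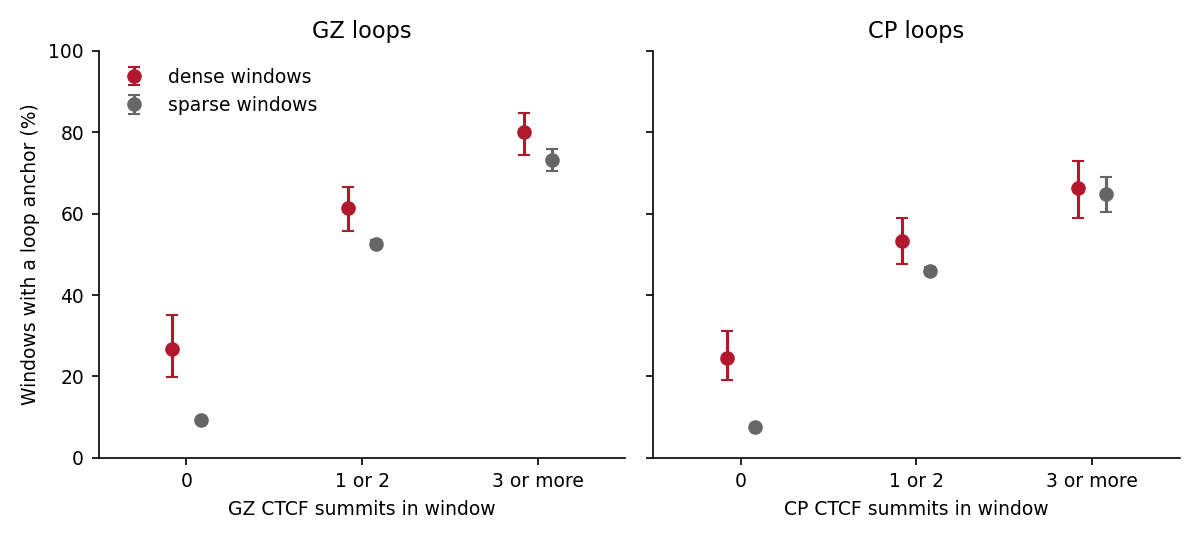
Share of windows (%) with a loop anchor, for dense and sparse windows split by the number of CTCF summits of the same tissue in the window (0, 1 or 2, 3 or more), with 95% Wilson intervals; GZ lists on the left, CP lists on the right. Without CTCF the dense windows stand at 26.8% in GZ and 24.6% in CP, above 9.22% and 7.63% of sparse windows. With 3 or more CTCF summits the intervals overlap in both tissues. Loops of all spans are counted.

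In the GZ list 1057 loops (7.22%) had an end in a dense window, and in the CP list 658 (7.20%). They spanned a median of 430 kb in both lists, against 560 kb in GZ and 540 kb in CP for loops with an end in a sparse window. The 2 classes of loops overlap, since 90.6% of GZ loops and 89.7% of CP loops had an end in a sparse window. In the GZ list 683 far ends of loops from sparse windows lay in dense windows. Values and intervals of the 2 classes are thus not those of separate sets. Contacts in the GZ list were 3.07 times the expected number for the median loop of dense windows and 3.26 times for that of sparse windows. The share of these loops found in the other tissue was close for both classes, at 51.4% for dense windows (interval 48.4 to 54.4%) and 50.5% for sparse windows (interval 49.6 to 51.3%) in the GZ list. For 406 loops of dense windows called in the same bins in both tissues, the median ratio of GZ to CP observed over expected contacts was 1.13 (quartiles 0.997 and 1.27), as it was for sparse windows (quartiles 0.993 and 1.28).

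The far ends of these loops were richer in open sites. The window at the other end of a GZ loop held 2.96 GZ peaks on average for loops from dense windows and 2.28 for loops from sparse windows. It was itself dense in 110 of 1112 cases (9.89%; interval 8.27 to 11.8%), against 3.29% (interval 3.05 to 3.54%). In the CP list it was dense in 11.7% of cases (interval 9.55 to 14.3%), against 3.20%. Among GZ loops of up to 2 Mb the shares were 10.5% and 3.35%. A loop that joined a dense to a sparse window counted in both classes. Loops that joined 2 dense windows numbered 55 in GZ and 41 in CP, and each was counted from both of its ends. The 110 GZ cases are thus not independent of each other. The intervals for loops from dense windows are therefore too narrow in both lists.

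Few dense windows held a domain boundary, but boundaries lay somewhat closer to them than to sparse windows. A GZ boundary bin coincided with 37 dense windows (5.65%; interval 4.13 to 7.69%), against 4.69% of sparse windows and a background of 4.78%. A CP boundary coincided with 40 (6.11%; interval 4.52 to 8.21%), against 4.32% of sparse windows and a background of 4.43%. The GZ interval included the sparse share, and the CP interval of 4.52 to 8.21% touched that of sparse windows, 4.11 to 4.53%. Both lists placed a boundary in 23 dense windows (3.51%), GZ alone in 14 (2.14%) and CP alone in 17 (2.60%). Over all windows with a GZ peak these shares were 2.55%, 2.23% and 1.88%. A GZ boundary lay within 200 kb of 50.4% of dense windows (interval 46.6 to 54.2%) and of 43.7% of sparse windows (interval 43.1 to 44.2%). A CP boundary lay within 200 kb of 48.2% of dense windows (interval 44.4 to 52.1%) and of 40.9% of sparse windows (interval 40.4 to 41.4%). Within 80 kb the GZ numbers were 171 of 655 (interval 22.9 to 29.6%) for dense windows and 8032 of 36441 (interval 21.6 to 22.5%) for sparse windows, and within 40 kb the intervals of dense and sparse windows overlapped in GZ but not in CP, at 15.7% (interval 13.1 to 18.7%) and 12.7% (interval 12.3 to 13.0%). The nearest boundary lay a median of 200 kb from a dense window in GZ and 240 kb in CP, against 280 kb from a sparse window in both. This closeness was not particular to dense windows. Windows with 4 or 5 GZ peaks had the same medians as dense windows, and 50.4% (GZ) and 47.4% (CP) of them had a boundary within 200 kb. Boundary scores in dense windows had a median of 0.590 in GZ and 0.563 in CP, against 0.627 and 0.590 over all boundaries.

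By the GZ lists, 367 dense windows (56.0%) held both CTCF and a loop anchor, against 23.4% of sparse windows and a background of 26.0%. All 3 features met in 26 dense windows (3.97%), against 1.88% of sparse windows and a background of 2.03%. None of the 3 was found in 91 dense windows (13.9%; interval 11.5 to 16.8%), against 18234 of the 36441 sparse windows and a background of 47.0%.

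Windows beside dense windows held more open sites than windows beside sparse windows, though most were not dense themselves. Windows 40 kb away from a dense window held 2.63 GZ peaks and 2.30 CP peaks on average, against 1.34 and 1.17 beside sparse windows. At 400 kb the GZ means were 1.67 and 1.30, and at 1000 kb they were 1.52 and 1.27. The mean over all 66872 autosomal windows was 1.21. Of the windows 40 kb from a dense window, 9.47% were dense themselves and so chosen by the rule, against 1.03% beside sparse windows. Without such windows, the means at 40 kb were 2.15 GZ peaks and 1.96 CP peaks beside dense windows, and 1.29 and 1.13 beside sparse windows.

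**Figure D4:**
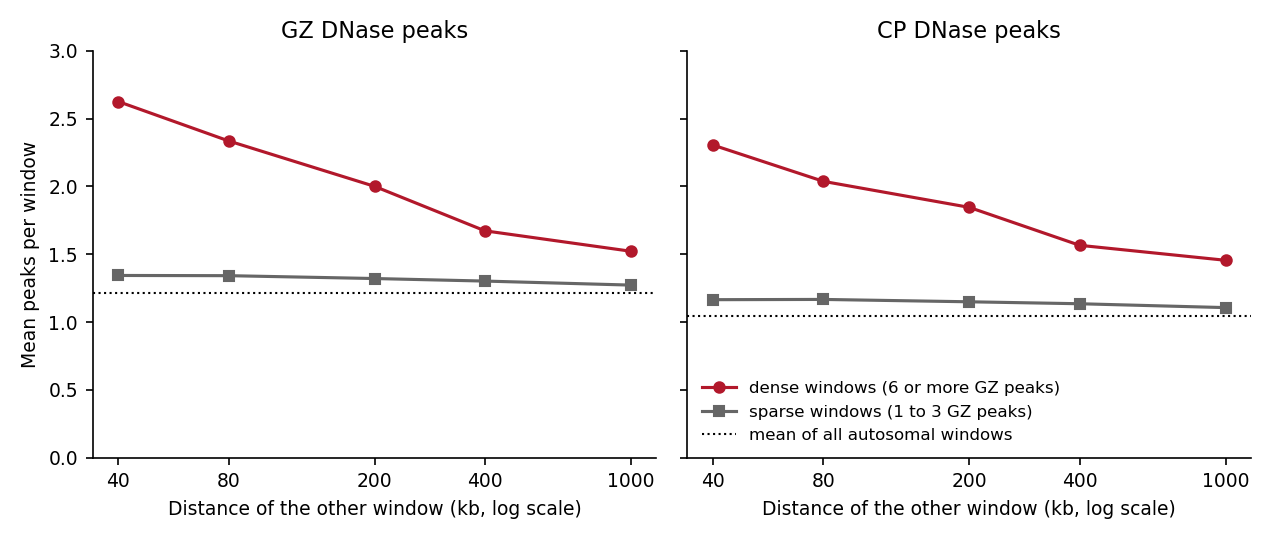
Mean DNase peaks per window (vertical axis) at 40, 80, 200, 400 and 1000 kb (horizontal axis, log scale) from dense windows and from sparse windows, for GZ peaks on the left and CP peaks on the right; the dotted line is the mean of all autosomal windows. Means near dense windows fall from 2.63 at 40 kb to 1.52 at 1000 kb for GZ and from 2.30 to 1.46 for CP, and stay above those near sparse windows at each distance.

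Most dense windows stood alone. Of the 655, 546 had no dense neighbour and 109 (16.6%) lay in 47 runs of 2 or more windows, of which 10 had 3 or 4 windows. These runs were unlike each other. On chromosome 16 (rheMac8 chr16:32080001-32240000) 4 windows held 30 GZ and 6 CP peaks, with 3 GZ and 1 CP CTCF peaks. A run of 4 on chromosome 5 (chr5:153040001-153200000) held 29 GZ and 14 CP peaks. On chromosome 17 (chr17:9120001-9280000) the numbers were 48 GZ and 50 CP peaks, with no CTCF peak in either list, and nearby (chr17:8920001-9080000) 26 GZ and 34 CP peaks. On chromosome 15 (chr15:49600001-49760000) 28 GZ and 20 CP peaks lay with 15 GZ and 13 CP CTCF peaks.

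By chromosome, dense windows ranged from 4.56 per 1000 windows on chromosome 18 (8 windows) to 32.1 on chromosome 16 (62 windows). Chromosome 19 followed with 29.8 (40 windows) and chromosome 14 with 14.1. Chromosomes 19 and 16 also had the highest numbers of GZ peaks per Mb, 45.7 and 41.6. Without these chromosomes, 78.1% of dense windows and 42.5% of sparse windows held GZ CTCF.

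**Figure D5:**
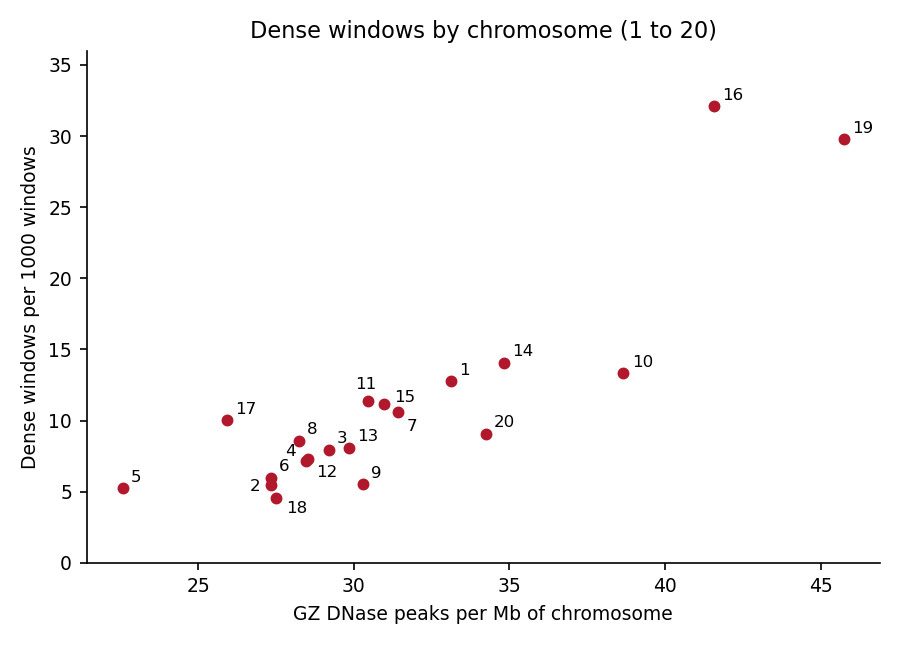
Dense windows per 1000 windows (vertical axis) against GZ DNase peaks per Mb (horizontal axis) for the 20 autosomes, each point a chromosome marked by its number. Chromosomes 16 and 19 stand apart at 32.1 and 29.8 dense windows per 1000; the next, chromosome 14, has 14.1.

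The windows with the most peaks differed from the class as a whole in CTCF. The 5 with the most GZ peaks were chr2:7120001-7160000 with 19 GZ and 17 CP peaks, chr17:9200001-9240000 with 14 and 14, chr17:9160001-9200000 with 12 and 13, chr8:1-40000 with 12 and 15, and chr17:9240001-9280000 with 11 and 10. None held a CTCF summit of either tissue. The fifth was 1 of 4 windows tied at 11 GZ peaks, placed by its summed score, and 2 of the tied windows did hold CTCF, chr4:26600001-26640000 with 4 GZ and 3 CP summits and chr1:15080001-15120000 with 1 and 1; these were looked up after the values were seen. Their GZ peaks of highest score had scores of 58, 64, 247, 76.5 and 87 in that order, and all but the last overlapped a CP peak. The 13 windows with 10 or more GZ peaks held 151 GZ and 136 CP peaks together. Of these 13, 8 lacked GZ CTCF (61.5%), against 18.5% of the 642 windows with 6 to 9 peaks. Of the 8, 6 adjoin each other at 2 places, near chr17:9120001-9280000 and chr2:7080001-7160000, so this share rests on few places. CP peaks overlapped 72.2% of their GZ peaks (interval 64.6 to 78.7%), against 57.0% in the 642 windows.

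Apart from those 5, the highest CP numbers were in chr17:9120001-9160000 with 11 GZ and 13 CP peaks, chr17:8960001-9000000 with 7 and 11, and chr2:7160001-7200000 with 8 and 10. The lowest were in chr3:100240001-100280000 with 6 GZ and 0 CP peaks, chr16:32200001-32240000 with 7 and 0, and chr9:100320001-100360000 with 6 and 1. The window on chromosome 3 nonetheless held 3 GZ and 2 CP CTCF summits, and 1 GZ loop anchor and no CP anchor. The windows on chromosomes 16 and 9 held no CP CTCF and no CP anchor.

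A few dense windows held many loops, although the windows with the most loops were not dense. At least 5 GZ loop ends were found in 49 dense windows (7.48%; interval 5.70 to 9.75%), against 1.10% of sparse windows and a background of 1.48%. The highest number was 28 GZ and 22 CP loop ends in a dense window, against 417 and 292 in a sparse window and 206 and 135 in a window with 4 or 5 GZ peaks. The window chr2:7160001-7200000 had 28 GZ and 20 CP loop ends, of which 24 and 18 belonged to loops over 10 Mb. The window chr2:107080001-107120000 had 21 GZ and 22 CP loop ends, with 18 and 21 over 10 Mb, and chr5:8160001-8200000 had 18 and 14, with 14 and 11 over 10 Mb. None of the 3 held a CTCF summit in either list, and their observed over expected contacts had medians of 15.1 to 81.2 in GZ, against 3.07 for all loops of dense windows. Loops of up to 2 Mb numbered 2, 0 and 2 in these windows in each list. Repeats and assembly errors in these windows and in the 5 with the most GZ peaks were not examined, since no genome sequence was used here, and their peak and loop numbers carry that limit.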

How the data were processed

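HOMER, MACS2, HiC-Pro, STAR, Bowtie2, deepTools, SAMtools and the build rheMac8 are named in the submitters' processing notes, without versions or roles. DNase peaks of 146 bp came from HOMER with a score, a p-value, a normalized signal of tags and a fold over the local background, per the file headers. CTCF peaks were deposited in MACS2's narrowPeak format with a fold enrichment ratio and a −log10 q. Loops at 10 kb carry counts of observed contacts and an expected signal, per the file headers, in 1 list per tissue for 3 libraries. The boundary value is a deposited score on 40 kb bins, and no header names it. RNA values are deposited log2 FPKM, normalized with cqn per the labels. No file used here gives the read depth of a peak library, so precision rests on the numbers of peaks and windows.

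Windows were counted with pandas 2.3.3 and numpy 2.4.6 under Python 3.11.15, over 20 autosomes up to the largest coordinate in any list, with intervals from scipy 1.17.1 and figures from matplotlib 3.10.9. DNase peaks were placed by their centre, CTCF peaks by their summit, loops by the centre of each anchor bin, and boundaries by their bin. The ratio of numbers used a pseudocount of 1. The counting was tested on simulated lists with known answers. Coordinates are 1-based on rheMac8. Windows named are the 5 with the most GZ peaks, 3 of the others with the highest and 3 with the lowest CP number, and the 3 with the most loops, with ties settled by summed GZ score. The members, lists and rules were chosen with earlier results of these data known. Genes were not assigned to windows, so the planned comparison with RNA was not run. The 2 CTCF input samples were not used here. Alternatives moved the grid, the thresholds, the overlaps and the lengths of the lists.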

Additional observations from a re-analysis of the deposited data

Results flagged for a closer look

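Outside the autosomal windows, the GZ DNase list held 41 peaks on chromosome Y, against 2 in the CP list. This was singled out as a signal in data that the comparisons above do not use. CTCF peaks on chromosome Y numbered 13 in GZ and 6 in CP. RNA of DDX3Y, a Y-linked RNA helicase, had log2 FPKM of -0.74, 4.51 and -1.73 in GZ libraries 1, 2 and 3, and 3.42, 4.11 and -1.73 in CP libraries 1, 2 and 3. In both tissues the libraries numbered 2 were high and those numbered 3 low, and those numbered 1 differed between GZ and CP. No cause was tested.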

How the results depend on the processing

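No paired analysis was possible because no result comes from a test: DNase-seq and CTCF had 1 library per tissue and Hi-C 1 list per tissue. The planned RNA alternatives were likewise not run, and the planned threshold of 6 is the one reported. Of 149 values recomputed, 75 stayed within the interval of the reported value, or for the number of windows within 1.5 times of it, and 74 did not. The log2 ratio of GZ to CP peak number, the only kind that can be negative, stayed above 0. Each alternative still chose windows by GZ peak number, so this sign is a description. The mirror choice by CP number gave -0.32. With 10 or more GZ peaks the interval of the ratio was -0.18 to 0.48. In all 9 alternatives tried for each, dense windows had more loop anchors and more boundaries than sparse windows in both tissues. They had more CTCF in 8 of 9, the exception being windows of 10 or more GZ peaks. The choice by GZ peak number sets the CTCF order in part. The alternatives rework the same lists and are not independent of each other. For GZ boundaries the gap was as small as 2.44% against 2.37%, and the reported interval of 4.13 to 7.69% included the sparse share.

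Values that moved follow, with the cause not tested. With 10 or more GZ peaks, 13 windows were left, with 10.5 CP peaks each, a log2 GZ to CP ratio of 0.15, 72.2% of GZ peaks shared with CP and 7.28% of them at GZ CTCF. Of these windows 38.5% held GZ CTCF, 76.9% a GZ loop anchor, 15.4% a GZ boundary, 30.8% CP CTCF and 61.5% a CP anchor. With 8 or more, the threshold first tried, 84 windows had 6.45 CP peaks each, 61.3% of GZ peaks shared and 19.5% at CTCF, and 75% held GZ CTCF, 70.2% a GZ anchor, 8.33% a GZ boundary and 53.6% a CP anchor. A grid shifted by 20 kb gave 73.8% with CP CTCF. The settings that leave windows or chromosomes out were chosen after seeing the data, as was recomputing the values at 8. Leaving out windows of 10 or more GZ peaks moved none of 11 values.

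With DNase peaks from the lower quartile of score up, 59.0% of GZ peaks in dense windows were shared. Sparse windows then had 1.24 CP peaks, a log2 ratio of 0.34, 55.7% shared, 30.7% at CTCF, and 50.1%, 33.4% and 5.20% with GZ CTCF, anchor and boundary, and 40.1%, 24.4% and 4.85% with those of CP. With DNase lists of equal length, 59.3% were shared in dense windows. Sparse windows had 1.46 CP peaks, a log2 ratio of 0.13, 58.2% shared, 29.0% at CTCF, and 47.6%, 31.5% and 5.01% with GZ CTCF, anchor and boundary, and 37.6%, 23.0% and 4.65% with those of CP. The difference in shared peaks thus shrank to 59.3% and 58.2%. An overlap of at least 50% of a peak gave 52.1% shared in dense windows, and 47.4% shared and 25.1% at CTCF in sparse windows.

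CTCF peaks from the median q up gave 16.8% of GZ peaks at CTCF, 64.6% with GZ and 54.5% with CP CTCF in dense windows, and 15.7%, 24.9% and 18.3% in sparse windows. CTCF lists of equal length gave 20.7% at CTCF and 73.1% with GZ CTCF in dense windows, and 21.2% and 34.0% in sparse windows. Loops up to 2 Mb gave 25.3% with a GZ and 18.6% with a CP anchor in sparse windows, and loop lists of equal length 40.2% in dense and 19.9% in sparse windows for GZ. A boundary in the window or beside it was found in 16.3% (GZ) and 15.7% (CP) of dense windows, and 13.7% and 12.7% of sparse windows. Boundaries from the median score up gave 2.44% and 2.75% of dense windows, and 2.37% and 2.14% of sparse windows. Without chromosomes 16 and 19, 55.5% of GZ peaks in dense windows were shared, and sparse windows had 1.30 CP peaks, a log2 ratio of 0.33, 51.2% shared, 25.4% at CTCF, 42.5% with GZ CTCF, 28.2% with a GZ anchor and 32.7% with CP CTCF.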
